A study of Mus musculus with 7 samples.

Results

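The comparison described here sets a mouse lung tumor library from animals given 2 antibodies together, DC101 and 4H2, against the library of the matching vehicle group, both taken at day 21. The members are the 2 libraries that carry those titles, of 7 in the series. Both groups were C57BL/6 mice bearing tumors with an exon 19 deletion of Egfr that were passaged under the skin, and both had first received gefitinib, an inhibitor of the EGFR kinase, for 14 days. For the next 7 days the combination group received DC101, which binds mouse VEGFR2, together with 4H2, which binds PD-1. The vehicle group received vehicle over those 7 days according to its title, while its treatment field records no treatment. The other day 21 libraries, set beside the pair where they help, had the same 14 days of gefitinib and then DC101 alone or 4H2 alone for 7 days. Prior gefitinib is therefore common to all 4 libraries of day 21. How many animals entered a library, and whether tumors were pooled, was not given in the sources used here.

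PD-1 is an inhibitory receptor that activated T cells display, and its ligand PD-L1 is made by tumor, myeloid and vessel cells, often under the control of interferon gamma. VEGFR2 is the main receptor through which VEGF-A drives the growth of blood vessels, and VEGF-A also limits the entry of lymphocytes into tumors. A tumor with an activating EGFR mutation depends on the ERBB receptor and MAPK cascade for growth, and its epithelial cells carry keratins, claudins and, in lung adenocarcinoma, surfactant genes. A tumor grown under the skin lies between dermis, fat, the thin muscle of the skin and body wall muscle, so bulk RNA of such a tumor can hold all of these tissues.

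Values are TPM, a transcript abundance corrected for gene length, and differences are log2((TPM + 1) / (TPM + 1)) of combination against vehicle, for the 13997 of 21892 genes whose TPM averaged 1 or more across the 7 libraries. Each group has 1 library, so replicate spread and tests are lacking, and every difference is between 2 libraries. The depth behind the TPM values is unknown. For 153 of the compared genes, 9 of them on the gene lists, the mean fell under 1 when the combination library was left out. For 37 genes, 1 of them on the lists, it did so when vehicle was left out. Such genes are said here to pass the filter only through that library. Their value there had to exceed the mean of the other libraries, but a single other library could be higher still. Below, "higher" and "lower" without a further word mean at least 2-fold apart on that scale. The pseudocount of 1 makes the difference of a low gene smaller than the ratio of its TPM values. In bulk RNA, fewer cells of a type and less RNA per cell cannot be told apart.

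The 2 libraries differed widely. In the combination library 1638 genes were higher (11.7% of those compared) and 2373 lower (17.0%), so that 28.7% lay at least 2-fold apart. These shares are the background for every count of list members below, and a count near them does not set a list apart. The median of all genes was -0.17. After a median-of-ratios rescaling that median was 0.05 and the split became 2124 higher and 1767 lower, and with TPM rescaled to genes outside the host tissue lists it was 1980 higher and 1933 lower. At least 10-fold differences were more often upward, with 285 genes against 137. The genes counted as higher held 26.4% of all TPM in the combination library and 3.82% in vehicle, and the genes counted as lower held 6.93% against 24.8%. Beside these figures, the combination library set against 4H2 alone had 692 genes higher (4.94%) and 65 lower (0.464%), or 5.41% apart, and set against DC101 alone 1555 higher (11.1%) and 1996 lower (14.3%), or 25.4% apart.

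**Figure D1:**
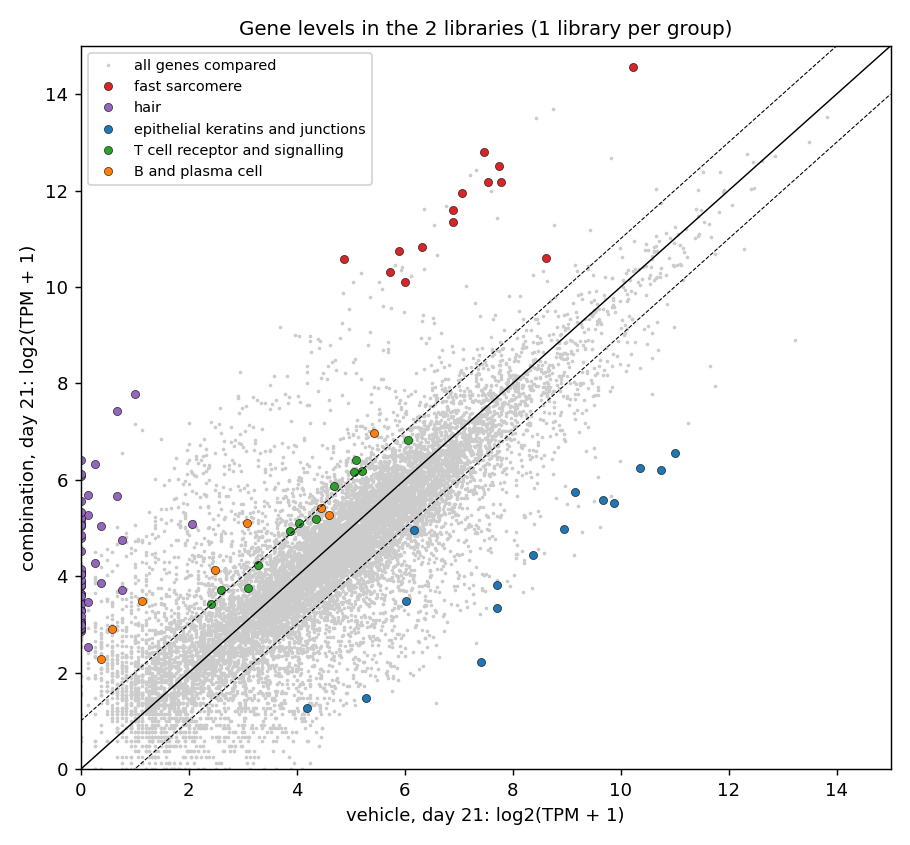
Each point is a gene, with log2(TPM + 1) in the vehicle library on the x axis and in the combination library on the y axis; the solid line marks equal values and the dashed lines a 2-fold difference. Fast sarcomere and hair genes lie above the upper dashed line, epithelial genes below the lower one, and T and B cell genes near or above the upper one. Of the 52 hair genes plotted, 33 passed the filter only through the combination library, which largely fixed their place.

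**Figure D2:**
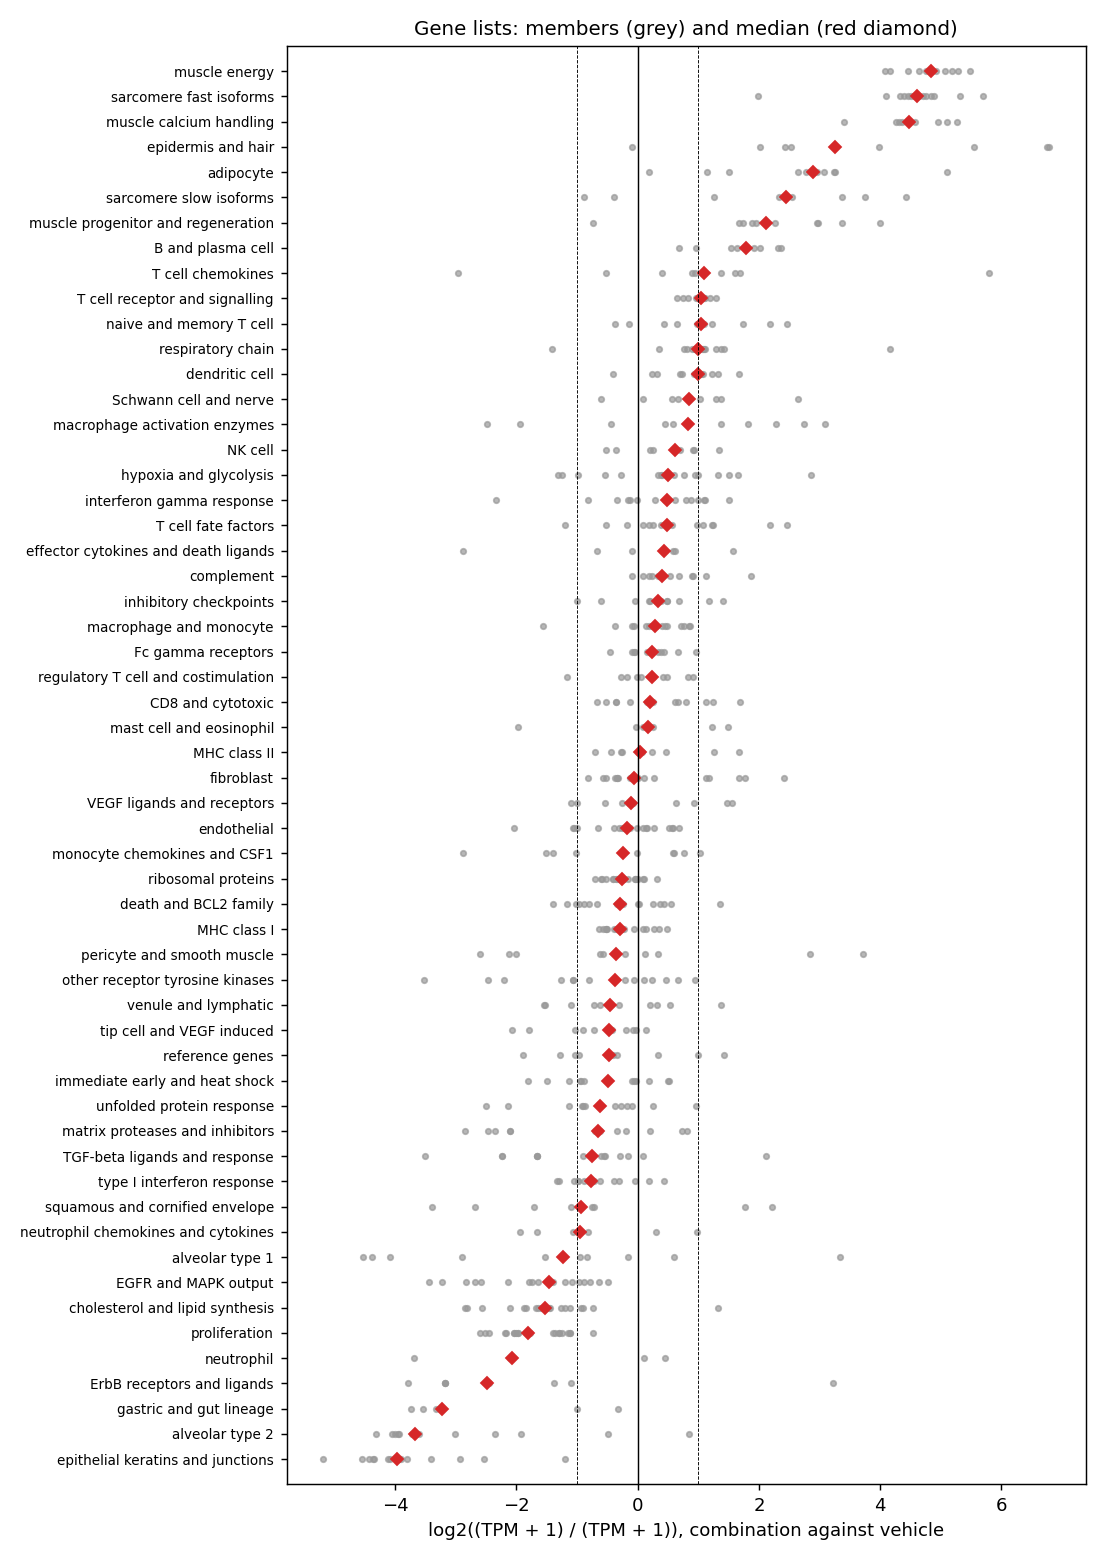
Gene lists ordered by their median difference between combination and vehicle (red diamonds), with each compared member as a grey point, on a log2((TPM + 1) / (TPM + 1)) axis; dashed lines mark 2-fold. Muscle lists reach a median of 4.83 at the top and the epithelial list lies at -3.98 at the bottom, with most immune lists between 0 and 2.

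The genes of the drug targets and of the response they bear on stood as follows. Egfr (chromosome 11) was at 446.7 TPM in vehicle and 48.3 in the combination library, beside 19.4 with 4H2 and 537.8 with DC101. Kdr, which encodes VEGFR2, was at 19.6 TPM in vehicle and 9.3 in the combination library, a difference of -1.0 that sits on the 2-fold threshold and became -0.78 after median-of-ratios rescaling. DC101 alone had Kdr at 11.4 TPM and 4H2 alone at 10.7, so all 3 antibody libraries were below vehicle. Vegfa, the ligand gene, was at 66.5 TPM in vehicle and 45.7 in the combination library, within 2-fold.

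Pdcd1, the PD-1 gene, was at 27.5 TPM in vehicle and 31.4 in the combination library, between the 15.8 of DC101 and the 40.6 of 4H2. Cd274, which encodes PD-L1, was higher, at 83 against 36 TPM (difference 1.18), with 88.9 in the 4H2 and 23.1 in the DC101 library. Cd8a, the CD8 coreceptor gene, was at 34.2 against 30.6 TPM. Gzmb, a granule protease of killer cells, was at 8.3 against 9.1 TPM. Ifng was at 6 against 10.1 TPM. Cd8a, Gzmb and Ifng were thus within 2-fold of vehicle, and the 4H2 library had the largest TPM of the 4 for each (56, 15.3 and 14.5).

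Genes of tissues that can lie around a tumor made up the largest upward differences. The lists of skeletal muscle held 11% of all TPM in the combination library and 0.489% in vehicle, with 11.1% in the 4H2 and 2.39% in the DC101 library. All 14 fast sarcomere genes were higher, with a median of 4.60. Acta1, the actin of skeletal muscle, was at 1200.7 TPM in vehicle and 24233.6 in the combination library. Myh4, the myosin of the fastest fibres, was at 176.5 and 7108.7 TPM, and Myh2, the myosin of fast oxidative fibres, at 28.4 and 1530.8. The myosin genes Myh1, Myh2 and Myh4 are close copies of each other, and how reads shared by copies were counted was not given in the sources used here, so their split is uncertain.

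Other muscle groups followed the same direction. Of 8 calcium handling genes, all were higher (median 4.47): the calcium pump gene Atp2a1 was at 429 and 13311.8 TPM, and the calcium buffer gene Pvalb at 80.7 and 3133.2. All 10 genes of muscle energy supply were higher (median 4.83), among them muscle creatine kinase Ckm (344.9 and 11562.5 TPM) and the fatty acid carrier Fabp3 (11.9 and 573.3). Fabp3 was also above the 253.1 TPM of the 4H2 library. Of 8 slow isoform genes 6 were higher (median 2.44), with Mybpc1 at 40.1 and 883.8 TPM, whereas Myh7, the slow myosin, was at 1.1 and 0.6. Myl2 and Myl3, among the 6, passed the filter only through the combination library in the sense given above. Myl2 was highest there, at 9.3 TPM against 1.9 with 4H2, while Myl3 was at 2.1 TPM there and 4.3 with 4H2. Myh4 per Ckm, as a ratio of their TPM within a library, was 0.512 in vehicle and 0.615 in the combination library. Mstn, which encodes the growth inhibitor myostatin (1 and 142.6 TPM), and the kinase gene Mylk4 (1.2 and 130.9) were among the 12 highest genes of the whole comparison.

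Genes of muscle precursors and regrowing fibres were higher too, in 9 of the 10 compared (median 2.11). Gm7325, among the 9, passed the filter only through the combination library. Myod1 and Myog, transcription factors that start muscle differentiation, were at 24.1 against 2.2 TPM and 57.6 against 6.5. Myh8, the perinatal myosin, was at 58.1 against 4.7 TPM and Myh3, the embryonic myosin, at 10.7 against 2.5. Ncam1, which nerve cells also express, was at 11.8 against 20.4 TPM. Pax7 and Myf5, which mark satellite cells, had mean levels under 1 TPM and were not compared.

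Of 11 adipocyte genes 10 were higher (median 2.88). Lep, among the 10, passed the filter only through the combination library. Car3, a carbonic anhydrase abundant in fat and slow muscle, was at 158.6 TPM in vehicle and 5492.6 in the combination library. Adipoq, the adiponectin gene, was at 3.1 and 33.4 TPM, and Plin1, which coats lipid droplets, at 2.9 and 25.8. Pparg, the regulator of fat cell differentiation, was at 11.5 and 13.2 TPM. The 4H2 library had adipocyte values close to those of the combination library (median difference between them 0.09, none of 11 apart by 2-fold).

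**Figure D3:**
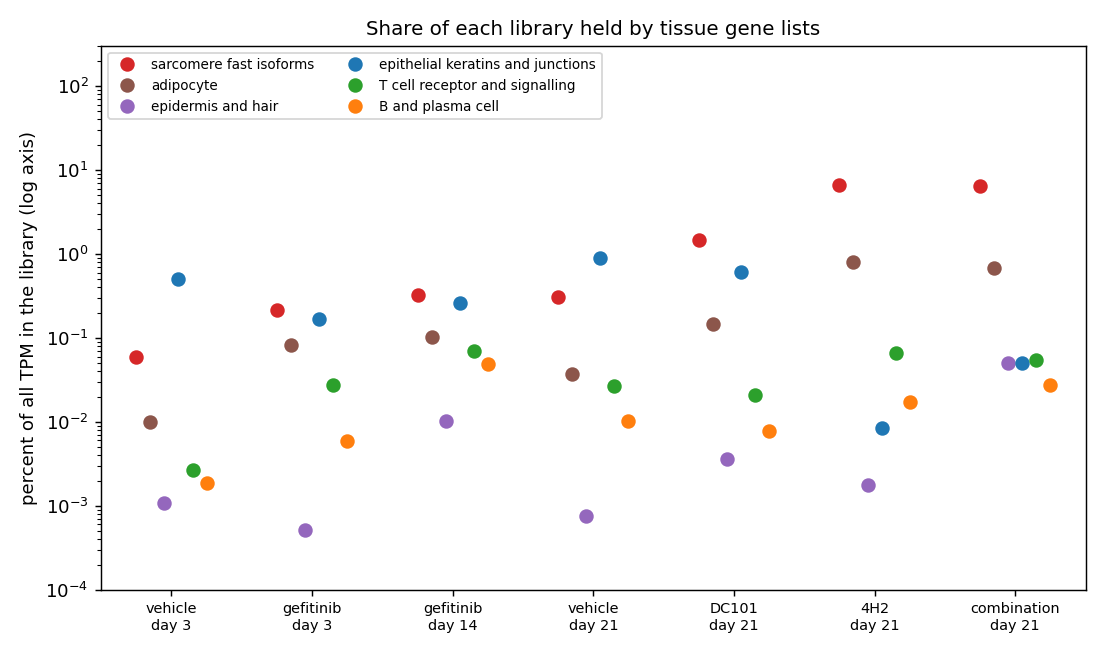
Percent of all TPM held by 6 gene lists in each of the 7 libraries, on a log axis, with points of a library spread sideways for legibility. The fast sarcomere list reaches 6.51% with the combination and 6.58% with 4H2, against 0.304% in the day 21 vehicle library, while the epithelial list is at 0.0507% with the combination and 0.903% in that vehicle library.

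Hair genes were at their highest in the combination library. Of 12 epidermis and hair genes 8 were compared, 1 of them, Krt15, only through that library, and 7 were higher (median 3.26). That median depends on the low members: it was 2.22 without the filter, 5.55 at a mean TPM of at least 5, and 5.37 and 2.07 with a pseudocount of 0.1 and 5. Tchh, which encodes trichohyalin of the inner root sheath of the hair follicle, was at 220 TPM in the combination library, 1 in vehicle, 7.1 with 4H2 and 8.2 with DC101. Krt71, a keratin of the same sheath, was at 172, 0.6, 4.4 and 4.9 TPM in that order. Krt5 and Krt14, keratins of the basal layer of the epidermis, were at 24.3 TPM each, against 0.6 and 3.7 in vehicle. Genes of the outer epidermis on the list were mixed. Krt10 was at 0.6 TPM in the combination and 0.7 in the vehicle library, and Krt1, Flg, Lor and Krtdap had mean levels under 1 TPM. Dsg1a was higher, at 6.3 against 0.8 TPM.

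This led to a wider group, chosen after its values were seen, of hair keratin, keratin-associated protein and trichohyalin genes. The table holds 76 such genes, of which 74 had their highest value in the combination library and 2 were listed at 0 in every library, while 62 were listed at 0 in vehicle. Together the 76 held 0.167% of TPM in the combination library, 0.00082% in vehicle and 0.0262% in the day 14 gefitinib library, the next highest. The filter kept 52 of them, but 33 of the 52 reached it only through the combination library, so a count of higher genes among the 52 was largely fixed by the filter and is not used; 19 reached it without that library. Keratin-associated proteins cross-link the keratin of the hair shaft: Krtap8-1 was at 84.8 TPM, Krtap11-1 at 68.5, Krtap7-1 at 66.3 and Krtap3-1 at 46.2, each listed at 0 in vehicle. Keratin genes of the inner root sheath on chromosome 11 were among the 12 highest genes as well, with Krt27 at 79.4 against 0.2 TPM and Krt25 at 50.5 against 0.1. The 76 genes lie in clusters, with 33 on chromosome 11, 23 on chromosome 16, 9 on chromosome 15, 5 on chromosome 7, 3 on chromosome 10, 2 on chromosome 3 and 1 on chromosome 1. Krtap genes have near-identical copies, so the split between them is uncertain. Pmel, a pigment gene of melanocytes and again chosen after its values were seen, was at 6.8 against 0.6 TPM.

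The hair genes share a plain feature of their promoters. A TATA box spelled TATAAA occurred on either strand within the 250 bases before the start site in 51 of the 65 hair genes with a promoter in the RefSeq table of GRCm38.p6 (78.5%), against 8.86% of 10608 compared genes with a promoter and 12.4% of all 32851 promoters there. Neighbouring copies within a cluster share sequence, so the genes are not independent, and a match is a description of these letters. The 150 bases before the start site of 3 hair genes, 1 from each of the 3 main clusters, are shown 5′ to 3′ along the gene's strand with the motif in capitals.
Krt71, chr15:101743098-101743247, minus strand: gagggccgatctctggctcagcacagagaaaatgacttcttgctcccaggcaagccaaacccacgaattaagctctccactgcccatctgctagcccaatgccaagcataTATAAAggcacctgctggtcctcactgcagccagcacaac
Krt25, chr11:99322952-99323101, minus strand: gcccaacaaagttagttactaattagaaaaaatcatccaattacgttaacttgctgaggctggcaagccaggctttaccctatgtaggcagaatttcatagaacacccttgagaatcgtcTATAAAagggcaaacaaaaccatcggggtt
Krtap11-1, chr16:89571184-89571333, minus strand: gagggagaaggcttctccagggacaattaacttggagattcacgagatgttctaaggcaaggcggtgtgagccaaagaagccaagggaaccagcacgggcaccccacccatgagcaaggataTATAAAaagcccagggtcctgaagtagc
The motif begins 40 bases before the start in Krt71, 30 in Krt25 and 28 in Krtap11-1.

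Nerve sheath genes were higher in 4 of 8 (median 0.85). Sox10, a regulator of Schwann cells and melanocytes, was at 1.2 TPM in vehicle and 4.7 in the combination library. Mbp, the myelin basic protein gene, was at 34.6 and 36.8 TPM.

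Genes of the tumor epithelium made up most of the largest downward differences. All 15 epithelial keratin and junction genes were lower (median -3.98). Epcam, an adhesion molecule of epithelial cells, was at 332.3 TPM in vehicle, 406.7 with DC101, 20.8 in the combination library and 3 with 4H2. Krt8 and Krt18, partner keratins of simple epithelia, were at 72.7 against 1731.3 TPM and 93.9 against 2050.6. Cldn18, a claudin of lung and stomach, was at 3.7 against 170.8 TPM and had the lowest difference after Ptprn among the ranked genes (-5.19). Dsp, which encodes desmoplakin and is also made in epidermis, had the smallest difference of the list, at 30.2 against 70.8 TPM. In the combination library the list held 0.0507% of TPM, in vehicle 0.903% and with 4H2 0.00848%.

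Set against 4H2 alone, the combination library had a larger share of epithelial RNA: 12 of the 15 genes were higher and none lower (median 2.45). Keratins that epidermis and hair follicle also make were part of a squamous list, of which 7 of 8 were higher than with 4H2 (median 2.90), among them Krt17 (52.2 against 3.4 TPM) and Sprr1a (46.1 against 3). Lung lineage genes, which skin does not use, differed in the same direction, with Nkx2-1 at 14 against 1.1 TPM and Sftpc at 144.6 against 28.8. The part of the hair and epidermis genes in the epithelial difference from 4H2 was not tested.

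Lung lineage genes were lower along with the keratins. Of 12 alveolar type 2 genes, which mark the surfactant-making cells, 10 were lower (median -3.67). Surfactant protein C, Sftpc, had 144.6 TPM where vehicle had 2428.8, and Sftpb had 478.7 where vehicle had 9561.3. Nkx2-1, the transcription factor that defines lung epithelium and many lung adenocarcinomas, was at 14 against 238.3 TPM. Lyz2, listed here because type 2 cells make it, is a main product of macrophages and was at 5325.8 against 2953.1 TPM. Alveolar type 1 genes, which mark flat gas-exchange cells, were mixed: 5 of 10 were lower and 1 higher (median -1.24, or -2.21 at a mean TPM of at least 5). Ager, the receptor RAGE, was at 29.2 against 627.2 TPM and Gprc5a at 11.7 against 291.2, whereas Clic5, which muscle also expresses, was at 49.7 against 4.

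Of 7 gastric and gut lineage genes 6 were lower (median -3.23). The nuclear receptor gene Hnf4a, which directs gut and liver differentiation, was at 3.6 against 52.3 TPM. Gkn2, which gastric mucosa secretes, was at 7.3 against 109.7 TPM. Squamous genes were split with 4 of 8 lower and 2 higher (median -0.93): Crct1 was at 15.5 against 172.3 TPM, while Krt6a, a keratin of the hair follicle and wounded epidermis that passed the filter only through the combination library, was at 7.9 against 1.6 and Trp63, the basal cell factor p63, at 6.4 against 0.6. Among the lowest ranked genes outside these lists were Ptprn, of secretory granules (1.6 against 94.5 TPM), Muc1, a mucin of glandular epithelium (12.6 against 327.7), Tnc, the matrix protein tenascin C (20.8 against 560), and Gzme, a granzyme gene with near-identical neighbours (5.1 against 158.9).

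Within the epithelial genes the proportions moved little for some pairs. The ratio of Sftpc to Epcam was 7.31 in vehicle and 6.95 in the combination library, that of Krt19 to Epcam 3.96 and 3.59, and that of Hnf4a to Epcam 0.157 and 0.173. Egfr per Epcam was 1.34 and 2.32, a pair in which Egfr is also made by stromal and skin cells. These ratios rest on levels in 1 library each.

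Genes of growth signalling were lower beside the epithelial list. Of 9 ErbB receptor and ligand genes 8 were lower (median -2.48). The receptor genes Erbb3 and Erbb2 were at 15.6 against 148.6 TPM and 14.9 against 88. Areg, which encodes the EGFR ligand amphiregulin, was at 12 against 179.1 TPM, and Hbegf, another EGFR ligand, at 5.9 against 61.5. Egf was the exception at 32.5 against 2.6 TPM, with 25.2 in the 4H2 and 7.7 in the DC101 library. Areg per Egfr was 0.248 in the combination and 0.401 in the vehicle library.

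EGFR and MAPK output, a list of targets and feedback inhibitors of ERK, had 14 of 19 lower and none higher (median -1.46). Etv4, an ERK-induced transcription factor, was at 12.5 against 145.7 TPM and the ephrin receptor gene Epha2 at 10.4 against 105.4. Dusp6, a phosphatase that turns ERK off, was at 55.6 against 338 TPM. The feedback inhibitor Spry1 was at 23.1 against 105.6 TPM and cyclin D1, Ccnd1, at 90.6 against 316.6. Of 15 other receptor tyrosine kinase genes and ligands 6 were lower and none higher (median -0.37): Ros1 was at 2.8 against 42.9 TPM and Ddr1 at 18.3 against 106.2, both made by epithelia, while Axl was at 259.6 against 240.6 and Pdgfrb, of pericytes and fibroblasts, at 50.4 against 58.1.

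Proliferation genes were lower in 21 of 22 (median -1.81). Cdc20, which starts the exit from mitosis, was at 18.1 against 114.9 TPM, Plk1, a mitotic kinase, at 14 against 84.6, and Mki67, the Ki-67 gene, at 37.3 against 90.3. Pcna, of the replication fork, was at 116.4 against 195.3 TPM. The ratio of Mki67 to Epcam was 1.79 in the combination and 0.272 in the vehicle library, whereas that of Mki67 to the pan-leukocyte gene Ptprc was 0.339 and 1.15. Set against 4H2 alone, 9 of the 22 were higher and none lower (median 0.91).

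Cholesterol and lipid synthesis genes were lower in 14 of 18 (median -1.53). Sqle, squalene epoxidase, was at 12.8 against 96.3 TPM, and Fasn, fatty acid synthase, at 100.8 against 728.8. Scd1, a desaturase that adipocytes make in quantity, was higher at 194.5 against 77 TPM. The lower genes of these growth and synthesis lists, unlike Egf and Scd1, moved with the epithelial list (0.0507% against 0.903% of TPM) and against the host tissue lists (11.7% against 0.536%), and the part of either was not tested.

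Energy metabolism genes mixed the directions. Of 16 respiratory chain genes 8 were higher and 1 lower (median 1.0). Cox7a1, an isoform of heart and muscle, was at 441.5 against 23.6 TPM, and Sdha, of complex II, at 362.5 against 134.2. Cox6a1, the isoform of most other tissues, was at 310.9 against 828.1 TPM. Of 16 hypoxia and glycolysis genes 4 were higher and 2 lower (median 0.50). Aldoa, the aldolase of muscle, was at 6585.6 against 902.4 TPM and the mitophagy gene Bnip3 at 127.4 against 39.6, while the glucose transporter Slc2a1 was at 52.6 against 127. Car9, a standard marker of hypoxia, was at 3.6 against 1.7 TPM. These lists moved with the muscle lists given above, whose part in them was not tested.

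Blood vessel genes differed less than the tumor and host tissue genes. Of 20 endothelial genes 4 were lower, near the 17.0% of all compared genes, and none was higher. The median of -0.17 was that of all genes. It turned to 0.06 after median-of-ratios rescaling. Cdh5, which encodes VE-cadherin of vessel cell junctions, was at 43.5 TPM in the combination library and 91.4 in vehicle, with 54.5 for DC101 and 52.4 for 4H2. Emcn, a sialomucin of capillaries and veins, was at 7.7 against 17.3 TPM. Esam, an adhesion molecule of tight junctions, had the largest difference at 24 against 102 TPM, and stood at 20.2 with 4H2. Pecam1, which encodes the pan-endothelial CD31, was at 58 against 67.5 TPM, and Vwf, the von Willebrand factor gene, at 34.7 against 23.9. Cdh5, Emcn and Kdr each came within 2-fold after median-of-ratios rescaling (-0.82, -0.85 and -0.78).

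Genes that VEGF induces in sprouting tip cells had a median of -0.47, with 3 of 11 lower and none higher. Dll4, the Notch ligand of tip cells, was at 6.3 TPM in the combination library, 14 in vehicle, 5.4 with DC101 and 7.1 with 4H2. Apln, the tip cell peptide apelin, was at 12 against 53.8 TPM in vehicle and 121.3 with DC101, and its receptor gene Aplnr at 9.5 against 35.2. Esm1, a marker of VEGF signalling in tip cells, was near the floor at 1.1 against 1.4 TPM. Set against DC101 alone, the list had 2 of 11 lower and none higher, and set against 4H2 alone none apart.

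VEGF ligands and receptors had a median of -0.11, or 0.07 after median-of-ratios rescaling, with 2 of 10 lower and 2 higher. Of all compared genes 17.0% were lower and 11.7% higher, so these counts do not set the list apart. The median was 0.63 at a mean TPM of at least 5 and 0.93 without members of other lists. Vegfb, made in muscle and fat, was at 161.9 against 57.4 TPM and Vegfd at 11.9 against 3.4. Flt4, the lymphatic receptor VEGFR3, was at 3.3 against 8.2 TPM. Flt1, the decoy receptor VEGFR1, was at 13.6 against 16.4 TPM. Per Cdh5, Kdr was at 0.214 in both libraries, Dll4 at 0.145 against 0.153, and Flt1 at 0.313 against 0.179.

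Venule and lymphatic genes, which govern the entry and exit of leukocytes, had 3 of 10 lower and 1 higher (median -0.46). Icam1, an adhesion receptor induced by inflammation in vessels and epithelium, was at 146.6 against 429.9 TPM. Vcam1 was at 117.5 against 145.9 TPM, and Vcam1 per Cdh5 at 2.70 against 1.60. Ccl21a, a chemokine of lymphatics and high endothelial venules, was at 28.8 against 10.5 TPM, and Glycam1, a ligand of L-selectin on such venules, at 7.1 against 4.6. Pericyte and smooth muscle genes had 3 of 11 lower and 2 higher (median -0.36). Acta2 and Tagln, contractile genes of smooth muscle and activated fibroblasts, were at 30.2 against 188.2 TPM and 32.2 against 143.5, while Rgs5, a pericyte gene, was at 23.1 against 35.9. The higher members Des (2744.9 against 207.7 TPM) and Abcc9 (54.1 against 6.7) are also made by skeletal muscle.

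Fibroblast genes had a median of -0.06, or 0.18 after median-of-ratios rescaling, with 5 of 16 higher and none lower. Of the fibrillar collagens, Col1a1 was at 4152.8 against 3873.5 TPM and Col5a1 at 222.6 against 394.8, both within 2-fold. Dpt and Dcn, matrix genes of dermis, were at 240.5 against 44.5 TPM and 347.7 against 101.6, and Pi16, of fibroblasts around vessels and in fascia, at 82.7 against 36.2. Postn, the periostin gene of remodelling stroma, was at 149.3 against 221.9 TPM. The adipocyte list, which held 0.675% against 0.0367% of TPM, was higher beside the dermal genes, and its part was not tested.

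The TGF-beta ligand and response list had 6 of 14 lower and 1 higher (median -0.76). Thbs1, which activates latent TGF-beta and is induced by it, was at 44.4 against 517 TPM. Ctgf, the connective tissue growth factor gene, was at 36.3 against 116.8 TPM. The ligand gene Tgfb1 was at 240.2 against 268.1 TPM. Matrix proteases and their inhibitors had 5 of 12 lower and none higher (median -0.66): Adamts4 was at 3.9 against 34.1 TPM, Timp1 at 29.5 against 168.7 and Mmp9 at 10.4 against 48.2. Timp3 was at 69.5 TPM, below vehicle (301.3), DC101 (176.1) and 4H2 (149.4) alike, each by at least 2-fold.

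Immune genes were for the most part above vehicle. Ptprc, the CD45 gene of all leukocytes, was at 110.1 TPM in the combination library, 78.3 in vehicle, 151.8 with 4H2 and 70.1 with DC101. Beside the immune lists, the host tissue lists held 11.7% of TPM against 0.536% in vehicle, and their part in the immune differences was not tested. All 12 compared T cell receptor and signalling genes lay above vehicle and 7 were higher by 2-fold (median 1.04). Cd2, an adhesion receptor of T and NK cells, was at 83.9 against 33.5 TPM, Lat, an adaptor of the T cell receptor, at 57.8 against 24.8, and Lck, its kinase, at 70.3 against 32.4. Cd3e, a chain of the receptor complex, was at 111.9 against 66.3 TPM, within 2-fold. None of the 12 was 2-fold apart from 4H2 alone, and 11 of 12 were higher than with DC101 alone.

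CD8 and cytotoxic genes differed less, with 3 of 15 higher and none lower (median 0.20). Ccl5, a chemokine of effector T cells, was at 902.3 against 280.8 TPM. Tbx21, the factor T-bet of type 1 effector cells, was at 16.3 against 6.3 TPM. The granule genes Prf1 (12.8 against 16.6 TPM) and Gzma (4.3 against 5.8) and the factor Eomes (17.4 against 25.5) lay below vehicle within 2-fold. Set against 4H2 alone, 2 of the 15 were lower, none was higher, and the median was -0.50.

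Ratios of TPM within a library do not depend on how the library was scaled. Cd8a per Cd3e was 0.306 in the combination library, 0.462 in vehicle, 0.365 with 4H2 and 0.450 with DC101. Cd4 per Cd3e was 0.574 against 0.474 in vehicle, and Cd8a per Cd4 was 0.533 against 0.975, with 0.665 for 4H2 and 0.678 for DC101, so the combination library had the lowest of the 4. Ifng per Cd3e was 0.0536 against 0.152. Per Cd8a, Gzmb was at 0.243 against 0.297 and Prf1 at 0.374 against 0.542. Macrophages and dendritic cells can also carry Cd4, so Cd4 is no pure T cell gene.

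Inhibitory checkpoint genes had 2 of 12 higher and none lower (median 0.34). With 11.7% of all compared genes higher, this count does not set the list apart. The higher ones were Cd274 and Btla, an inhibitory receptor of naive T and B cells, at 8.3 against 2.5 TPM. Lag3, a receptor of exhausted and activated T cells, was at 58.2 against 50.4 TPM, and Havcr2, the TIM-3 gene of exhausted T cells and myeloid cells, at 17.2 against 26.7. Per Cd8a, Pdcd1 was at 0.918 against 0.899 and Lag3 at 1.70 against 1.65, while Havcr2 was at 0.503 against 0.873. Cd274 per Ptprc was 0.754 against 0.460.

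Genes of naive, memory and less differentiated T cells were higher in 5 of 10 (median 1.04). Tcf7, which encodes TCF-1 of naive and stem-like T cells, was at 46.5 TPM in the combination library, 9.5 in vehicle, 31.8 with 4H2 and 15.3 with DC101. Lef1, its relative, was at 14.5 TPM against 1.8 in vehicle, with 6.9 for 4H2 and 1.8 for DC101. Ccr7, which leads naive cells and mature dendritic cells to lymph nodes, was at 33 TPM against 13.6, with 16.8 and 8.3. Tcf7 per Cd3e was 0.416 against 0.143 in vehicle, with 0.207 for 4H2 and 0.326 for DC101. Lef1 is also a factor of the hair matrix, and hair genes held 0.167% of TPM in this library against 0.00082% in vehicle; their part in the Lef1 difference was not tested. Klf2 and S1pr1, which vessels share with naive T cells, were at 160.5 against 176.8 TPM and 18 against 23.5.

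T cell fate factors had 5 of 14 higher and 1 lower (median 0.48). Beside Tcf7, Lef1 and Tbx21, Batf was at 62.4 against 26.1 TPM and Gata3, of type 2 helper cells and also of hair follicles, at 25.1 against 11.4. Tox, a factor of exhausted cells, was at 16.3 against 12.2 TPM. Id2, a broadly expressed inhibitor of helix-loop-helix factors, was at 139 against 320.7 TPM. Regulatory T cell and costimulation genes had 1 of 12 lower, Tnfrsf9 at 10.9 against 25.8 TPM, and none higher (median 0.24). Foxp3, the factor of regulatory T cells, was at 13.7 against 11.4 TPM, and per Cd3e at 0.122 against 0.172. NK cell genes had 1 of 9 higher, the chemokine gene Xcl1 at 15.8 against 5.6 TPM (median 0.62); Ncr1, their receptor NKp46, was at 3.6 against 2.

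B and plasma cell genes had the highest median of the immune lists at 1.78, with 6 of 8 higher and none lower. Pax5, among the 8, passed the filter only through the combination library, and without the filter the median was 1.64. Cd79a, a chain of the B cell receptor, was at 33.4 TPM in the combination library, 7.5 in vehicle, 16.5 with 4H2 and 3.5 with DC101. Ms4a1, the CD20 gene, was at 6.5 TPM against 0.5, 3.7 and 0.7 in that order. Jchain, which joins secreted antibody multimers, was at 124.7 TPM against 42.1 in vehicle. Cd79a per Ptprc was 0.303 in the combination library and 0.0958 in vehicle, with 0.109 for 4H2 and 0.0499 for DC101.

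Chemokines that attract T and B cells were higher in 6 of 11 and lower in 1 (median 1.09). Ccl19, which draws cells that carry CCR7 into lymphoid zones, was at 92.9 TPM in the combination library, 0.7 in vehicle, 43.7 with 4H2 and 2.8 with DC101. Cxcl13, which draws B cells that carry CXCR5, was at 27.8 TPM against 8.5, 14.6 and 8.3. Its receptor gene Cxcr5 was at 5.7 TPM against 1 in vehicle. Cxcl9, a ligand of CXCR3 induced by interferon gamma, was at 240.7 against 111.8 TPM, and Cxcl10 at 89.8 against 67.5. Ccl17, a ligand of CCR4, was lower at 1.2 against 16.1 TPM. Ccl19 and Ccl21a have near-identical gene copies in mouse, so their values are uncertain. Ltb, which encodes lymphotoxin beta, was at 115.7 against 38.2 TPM and was the higher one of 7 effector cytokine genes, while Csf2, the GM-CSF gene, was the lower one at 0.2 against 7.8.

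**Figure D4:**
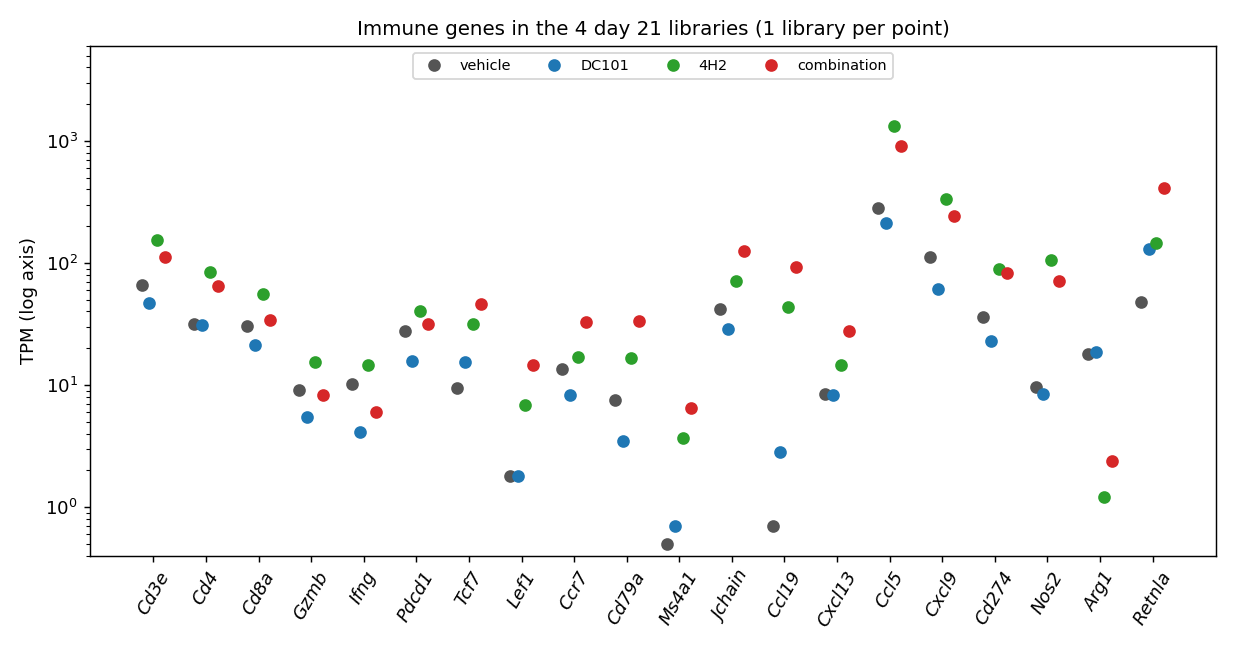
TPM of 20 immune genes on a log axis in the 4 libraries of day 21, with 1 library per point and no error bars since there is no replicate. The combination library has the highest point for Tcf7, Lef1, Ccr7, Cd79a, Ms4a1, Jchain, Ccl19, Cxcl13 and Retnla, and 4H2 alone the highest for Cd8a, Gzmb and Ifng.

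Macrophage identity genes were close to vehicle and their activation genes were not. Of 16 macrophage and monocyte genes 1 was lower and none higher (median 0.28). Adgre1, the F4/80 gene, was at 195.5 against 115.1 TPM and Cd68 at 487.8 against 269.9, both within 2-fold, while Cd14 was lower at 51.1 against 153. Of 11 macrophage activation enzymes and cytokines 5 were higher and 2 lower (median 0.83). Nos2, inducible nitric oxide synthase, was at 70.8 TPM in the combination library, 9.7 in vehicle, 106 with 4H2 and 8.5 with DC101. Arg1, the arginase that competes for its substrate, was at 2.4 TPM against 18, with 1.2 for 4H2 and 18.5 for DC101. Nos2 per Adgre1 was 0.362 against 0.0843 and Arg1 per Adgre1 0.0123 against 0.156.

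Genes of other activation states differed as well. Acod1, which makes itaconate in stimulated macrophages, was at 33.4 against 8.8 TPM. Retnla, a secreted product of macrophages exposed to IL-4 and also of adipose tissue, was at 413.8 TPM against 47.5 in vehicle, 145.8 with 4H2 and 129.4 with DC101. Cd163, a scavenger receptor of resident macrophages, was at 19.9 against 3.3 TPM. Il1b was lower at 4.4 against 19.7 TPM. None of 10 Fc gamma receptor and signalling genes was apart by 2-fold (median 0.24). Of 13 complement genes 2 were higher (median 0.41), C3 at 899.1 against 244.1 TPM and C4b at 294.9 against 134.4.

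Dendritic cell genes were higher in 6 of 14, with none lower (median 0.99). Batf3, a factor needed by cross-presenting dendritic cells, was at 54.7 against 16.4 TPM and Clec9a, a receptor of these cells, at 17.2 against 6.3. Xcr1, their chemokine receptor, was at 6.9 against 3 TPM, just within 2-fold. Flt3 was at 7.9 against 3.3 TPM. Siglech, of plasmacytoid cells, was at 3.2 against 1.6 TPM and Cd209a, of monocyte-derived cells, at 3.2 against 4.6.

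Neutrophil transcripts were near the floor in both libraries. The defining genes S100a8, S100a9, Ly6g and Camp were listed at 0 in vehicle and at 1.6, 0.6, 0 and 0.5 TPM in the combination library. Of the 5 list members compared, 3 were lower (median -2.07, or 0 without the filter), Lcn2 at 19.7 against 267.6 TPM, Ltf at 0.5 against 5.3 and Mmp9. Lcn2 and Ltf are also secreted by epithelium. Of 6 neutrophil chemokines and cytokines 3 were lower (median -0.95), with Cxcl3, which passed the filter only through vehicle, at 0.9 against 5 TPM. Cxcl2, also among the 6, passed the filter only through the combination library. Monocyte chemokine and CSF genes had 4 of 12 lower and 1 higher, Ccl8 at 1374.7 against 673.1 TPM; Ccl2, the main monocyte attractant, was at 37.7 against 77.1. Their median of -0.24 was 0.01 after rescaling without genes that follow the sarcomere profile. Mast cell and eosinophil genes had 2 of 7 higher and 1 lower (median 0.17), with the mast cell protease genes Cma1 at 13.1 against 4 TPM and Mcpt4 at 18.6 against 7.4, and Siglecf, of eosinophils, at 0.7 against 5.7.

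**Figure D5:**
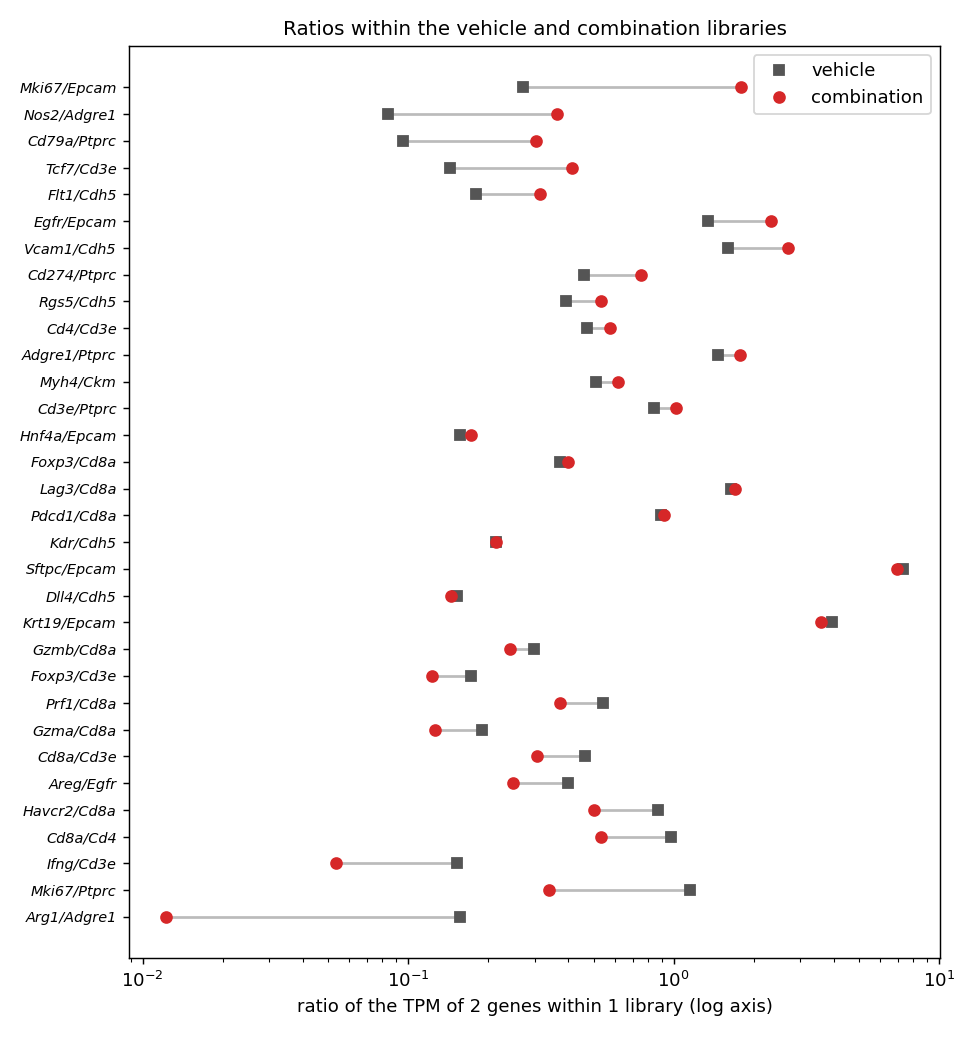
Ratio of the TPM of 2 genes within the vehicle library (squares) and within the combination library (circles), on a log axis, for the 32 pairs with both genes at 1 TPM or more in both libraries. Mki67 per Epcam shifts furthest upward, from 0.272 to 1.79, and Arg1 per Adgre1 furthest downward, from 0.156 to 0.0123, while Kdr per Cdh5 stays at 0.214.

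Most interferon response genes lay within 2-fold of vehicle. Interferon gamma response genes had 3 of 16 higher and 1 lower (median 0.48), and type I interferon response genes had 3 of 15 lower and none higher (median -0.77). With 11.7% of all compared genes higher and 17.0% lower, counts this small set neither list apart, and both medians are within 2-fold. Among the first, Gbp4, a guanylate-binding protein of cell-autonomous defence, was at 86.6 against 30 TPM, Irgm2, an immunity-related GTPase, at 322.4 against 148.6, and Gbp5 at 89.5 against 48.3. Tgtp1, a T cell specific GTPase gene with a near-identical copy, was lower at 68.6 against 350.6 TPM. Among the second, Bst2, the tetherin gene, was at 207.2 against 513.6 TPM, Isg15, a ubiquitin-like modifier, at 41.5 against 86.6, and Cmpk2 at 12.7 against 33.3, whereas Ifit3 was at 71.6 against 63.1. Isg15 came within 2-fold after median-of-ratios rescaling (-0.81). Bst2 was at 189.4 TPM and Cmpk2 at 16.2 with 4H2 alone.

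Both programmes act through short promoter elements, and part of the promoters of each list held them. Counted on both strands in the 250 bases before the start site, the core of the interferon-stimulated response element, searched as GAAA, any 2 bases and GAAA, occurred in 9 of 12 interferon gamma response genes (75.0%) and 6 of 12 type I genes (50.0%) with a promoter in the table, against 3.36% of the compared genes. TTCNNNGAA, the gamma-activated site, occurred in 7 of 12 (58.3%) and 3 of 12 (25.0%), against 7.40%. The motifs can overlap each other. The 150 bases before the start of 2 genes of each list are shown, 5′ to 3′ along the gene's strand, with every match in capitals, to show the elements in genes of either list. Of the 4, Gbp5 was within 2-fold of vehicle. In Cxcl9 and Cmpk2, not shown, the same 150 bases held no match of either kind.
Irgm2, chr11:58214827-58214976, plus strand: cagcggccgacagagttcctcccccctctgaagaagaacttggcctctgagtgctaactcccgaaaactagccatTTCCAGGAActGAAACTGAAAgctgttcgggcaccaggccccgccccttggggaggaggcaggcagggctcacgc
Gbp5, chr3:142496784-142496933, plus strand: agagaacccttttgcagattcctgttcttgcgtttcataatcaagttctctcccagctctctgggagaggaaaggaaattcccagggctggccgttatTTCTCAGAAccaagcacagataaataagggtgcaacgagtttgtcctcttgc
Isg15, chr4:156200819-156200968, minus strand: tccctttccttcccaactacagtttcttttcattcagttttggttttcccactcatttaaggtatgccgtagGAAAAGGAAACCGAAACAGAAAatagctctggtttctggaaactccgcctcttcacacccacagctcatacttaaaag
Bst2, chr8:71537473-71537622, minus strand: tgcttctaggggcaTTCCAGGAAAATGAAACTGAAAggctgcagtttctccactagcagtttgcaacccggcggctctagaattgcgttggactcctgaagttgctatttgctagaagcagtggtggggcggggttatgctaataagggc
Irgm2 holds a gamma-activated site 75 bases before the start and a response element core at 64, and Gbp5 a gamma-activated site at 52. Isg15 holds 3 overlapping cores, the first at 78 bases before the start. In Bst2 a gamma-activated site at 136 bases overlaps 2 cores at 130 and 124. Irgm2, which was higher, and Bst2, which was lower, each have both kinds of match.

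Antigen presentation genes were close to vehicle. None of 16 MHC class I genes was 2-fold apart (median -0.29), with H2-K1 at 2114.1 against 3290.5 TPM and B2m at 4160.4 against 5434.4. MHC class II genes had 2 of 10 higher (median 0.03): H2-Ob and H2-Oa, modulators of peptide loading made by B cells and some dendritic cells, were at 10.8 against 2.7 TPM and 18.1 against 7, whereas H2-Ab1 was at 6255.4 against 6260.9.

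Stress, death and housekeeping genes showed smaller differences. With 17.0% of all compared genes lower, the counts of 3 lower genes below set no list apart. Immediate early and heat shock genes had 3 of 12 lower (median -0.48), with Hspa1b at 16.2 against 59.3 TPM and Fos at 51.3 against 35.5. Unfolded protein response genes had 3 of 12 lower (median -0.62), Trib3 at 4 against 27.2 TPM and Asns at 6 against 29.8 among them. Cell death and BCL2 family genes had 3 of 17 lower and 1 higher (median -0.29), the survival gene Bcl2l1 at 25.6 against 68.9 TPM and the inflammatory caspase gene Casp1 at 42.3 against 15.9. None of 20 ribosomal protein genes was apart by 2-fold (median -0.25). Reference genes had 3 of 12 lower and 1 higher (median -0.48), and Gapdh, which muscle makes in quantity, was at 3405.5 against 1716.7 TPM while Actb was at 8179.1 against 11571.8.

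Few genes set the combination library apart from all 3 other libraries of day 21. Counting genes at least 2-fold from each of them, 165 were higher (1.18% of those compared) and 16 lower (0.114%), and 52 of the 165 were hair genes. Of the 165, however, 84 passed the filter only through the combination library, 33 hair genes among them, which largely fixed their place in this count; 81 passed without it. The same count gave 91 higher and 357 lower for vehicle, 14 and 468 for 4H2 and 31 and 10 for DC101, of which 81, 13 and 27 of the higher genes passed without the library in question. The hair group leaves out further genes of epidermis, hair follicle and pigment cells. The 165 also held Krt5, Krt14, Dsg1a and Pmel, given above, and Krt75, Hoxc13, Dct and Tyrp1, chosen after their values were seen. How many more were such genes was not counted. Genes of other kinds included Ccl19, Retnla and Fabp3, given above, and, chosen after their values were seen, Folr2, a folate receptor of resident macrophages (52.9 TPM, against 7.6 in vehicle, 21.9 with 4H2 and 17.8 with DC101), and Clec3b, tetranectin (131.6, 9.2, 62.5 and 34.1). The 16 lower genes included Timp3 and several matrix genes, likewise chosen after their values were seen. Col12a1, a collagen of fibril surfaces, was at 15.2 TPM, against 258.2 in vehicle, 38.3 with 4H2 and 91.1 with DC101. Col8a1, a collagen of vessel walls, was at 17.7, 103.9, 44.2 and 45 TPM in that order, and Plod2, a collagen cross-linking enzyme, at 7.9, 28.4, 22.5 and 32.5.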

How the data were processed

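The authors deposited TPM, which per the labels' protocols come from rRNA-depleted directional total-RNA libraries of frozen tissue. Per the submitters' processing notes, GRCm38.p6 was used. The aligner, counter, strand setting and annotation were not given in the sources used here, so overlapping and antisense genes may share reads. Columns total 1000000 and are rounded to 1 decimal. All 13 mitochondrially encoded protein genes are listed at 0, so a 0 is reported only as listed.

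Python 3.11.15, pandas 2.3.3 and numpy 2.4.6 computed log2((TPM + 1) / (TPM + 1)) for genes averaging 1 TPM or more. The calculation was run on a copy of the vehicle values with planted changes beyond 2-fold and no noise, which checks only the arithmetic. The 56 lists have 742 entries, of which 682 were compared. The text names 8 preset genes, the 12 highest and 12 lowest with at least 10 TPM, up to 6 members of each list along its median and up to 4 against it, and members of the 34 ratio pairs. Acta1, Axl, Car9, Ccnd1, Col1a1, Cxcl10, Dsg1a, Dsp, Esm1, H2-Ab1, Mbp, Myh1, Myh3, Pcna, Pdgfrb, Pecam1, Plin1, Pparg, Siglech, Tgfb1 and Xcr1 are list members named after their values were seen. Lep and Pax5 are named for how they passed the filter. The members and lists were chosen with earlier results of these data known. Some genes that the rule names are not reported here. Promoters and positions are from RefSeq.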

Additional observations from a re-analysis of the deposited data

How the results depend on the processing

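No paired analysis was possible because each group has 1 library, and for the same reason no library could be left out. The pseudocount (0.1 or 5), the filter (none, or a mean TPM of at least 5), 2 rescalings (median of ratios over 7340 genes, or genes outside the host tissue lists), the mean instead of the median, and lists stripped of shared members were planned. Leaving out or rescaling without the 340 genes that follow the fast sarcomere profile, and leaving out hair genes, were added after seeing the data. Genes higher ranged from 1098 to 2124 and genes lower from 1644 to 2679; without the sarcomere profile there were 1317 and 2373, without hair genes 1586 and 2373. None of the called medians or named genes changed sign. List medians crossed the 2-fold line as follows, and the cause was not tested unless the setting itself leaves fewer genes. With a pseudocount of 0.1 they were 1.21 for macrophage activation enzymes, 1.06 for dendritic cells and -1.72 for neutrophil chemokines. With a pseudocount of 5 they were 0.99 for the respiratory chain, 0.83 for T cell receptor genes, 0.61 for naive and memory T cells, -0.91 for neutrophils and 0.95 for T cell chemokines. At a mean TPM of at least 5 they were -1.41 for squamous, 0.87 for naive and memory T cell and 1.19 for macrophage activation genes. Without a filter the neutrophil median was 0. Median-of-ratios rescaling gave 1.08 for Schwann cells and 1.21 for dendritic cells, and rescaling to genes outside the host lists 1.01 and 1.15. Without the sarcomere profile these were 1.09 and 1.23, with -0.9997 for alveolar type 1 and 1.02 for macrophage activation genes. Without members of other lists, medians were -0.94 for alveolar type 1, 0.95 for the respiratory chain, 0.65 for naive and memory T cells, 1.81 for macrophage activation enzymes, -0.99 for neutrophils and 0.92 for T cell chemokines. Of the 56 medians, those that moved by more than 1.5-fold were 8 with a pseudocount of 5, 3 with 0.1, 2 without a filter, 5 of 55 at a mean TPM of at least 5, 3 with the mean, 3 without members of other lists and 0 under each rescaling. Median-of-ratios rescaling took 19 of 444 named genes within 2-fold and 22 past it.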
